A study of Mus musculus with 2 samples.

Results

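The genes described here encode fibronectin and proteins of the elastic fibre and its surroundings. They are Fn1, Eln, Fbn1, Fbn2, Fbln2, Fbln5, Ltbp3, Ltbp4, Emilin1 and Thbs1, taken by name, and all 10 were found among the 23609 genes of the deposited table. Expression was measured in pericardial adipose tissue (PAT), the fat around the heart, of P2Y4 KO and WT mice. The tissue was taken 24 h after permanent ligation of the left anterior descending artery (LAD), a model of myocardial infarction. The study's methods name C57BL/6J for the P2Y4 KO mice and no strain for the WT mice. The P2Y4 KO line, made in the authors' laboratory, lacks a nucleotide receptor, and male and female mice of 11 to 13 weeks were used at random. RNA of 3 mice was pooled per genotype, which gave 1 library each. The depth was estimated from the steps between the scaled values, at 14.89 M counted reads for the P2Y4 KO and 15.51 M for the WT library. There are no replicates and no unligated animals, so every ratio below compares 2 pools and has no replicate check. The targeted gene P2ry4 has no row in the table and could not be used to check the genotype labels.

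Fibronectin is a large adhesive glycoprotein that cells assemble into fibrils through integrins, and it is among the first matrix proteins laid down in a wound. Elastic fibres have a core of cross-linked elastin on a scaffold of fibrillin microfibrils. Fibulins and latent TGF-beta binding proteins (LTBPs) help to deposit elastin on that scaffold, and LTBPs and fibrillins also hold latent TGF-beta in the matrix. EMILIN-1 sits where elastin meets the microfibrils, and thrombospondin-1 is a matricellular protein released by platelets and stromal cells that can activate latent TGF-beta.

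Fibronectin, thrombospondin-1, elastin and LTBP-4 transcripts were at lower levels in P2Y4 KO than in WT PAT, while Emilin1 and Ltbp3 were at higher levels. Of the 10 genes, 4 had a P2Y4 KO/WT ratio of at most 0.5 (Fbn2, Ltbp4, Eln and Thbs1), none had a ratio of at least 2, and 6 lay between these limits. Among the 18474 genes with more than 0.5 counts per 1000000 (CPM) in at least 1 library, 4.40% had a ratio of at most 0.5 and 8.75% a ratio of at least 2. The median log2 ratio of the 10 genes was -0.72, beside a median of 0.00 over these 18474 genes. Fbn2 rests on 3 reads in P2Y4 KO and 13 in WT PAT and passed the CPM filter through the WT library only. With more than 0.5 CPM required in both libraries, 3 of 9 genes were at or under 0.5. The bounds in parentheses after a ratio are those of an exact 95% Clopper-Pearson interval of the reads, which covers counting error only. The count of 4 depends on the scaling of the libraries. When the libraries were scaled so that 86 ribosomal protein genes had a median ratio of 1, all log2 ratios increased by 0.20 and Fbn2 alone stayed at or under 0.5, and the share of higher genes among all genes past a limit was 80.2% instead of 66.6%. In bulk tissue, fewer cells of a type and less RNA per cell cannot be told apart.

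**Figure D1:**
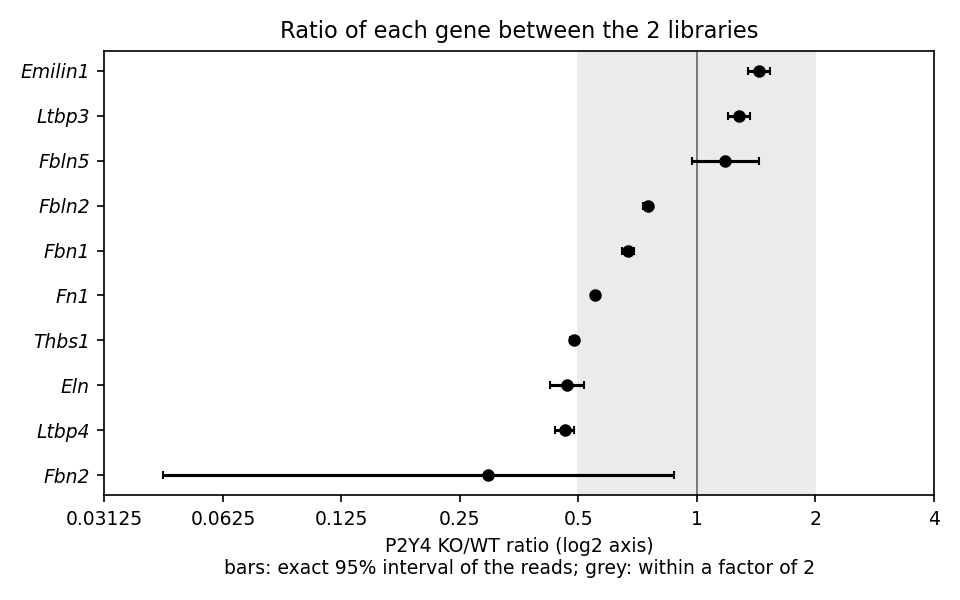
P2Y4 KO/WT ratio of each of the 10 genes (log2 axis) with the exact 95% interval of the reads as bars, the grey band marking ratios within a factor of 2. Fbn2, Ltbp4, Eln and Thbs1 lie at or below 0.5, and Fbln5, Ltbp3 and Emilin1 lie above 1, with the Fbln5 interval (0.973 to 1.44) crossing 1.

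Fn1, which encodes fibronectin, stood at 2445 CPM in P2Y4 KO PAT (36393 reads) and at 4447 CPM in WT PAT (68962 reads). It was the most abundant of all listed genes in the WT library and the one at rank 10 in the P2Y4 KO library. Its ratio of 0.550 (0.543 to 0.557) is above the limit of 0.5, and 5.63% of the 18474 genes had a lower one. Because of its abundance Fn1 had the largest difference of the 10 genes in CPM, with a P2Y4 KO minus WT difference of -2002 CPM. The counts are per gene, so that the splice forms of fibronectin with and without its extra type III domains cannot be separated.

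Thbs1, which encodes thrombospondin-1, had the next largest difference in CPM. It stood at 886 CPM in P2Y4 KO PAT (13190 reads) and at 1817 CPM in WT PAT (28179 reads), a ratio of 0.488 (0.478 to 0.498), so that its whole interval lies under 0.5. Thbs1 ranked 71 in the P2Y4 KO library and 16 in the WT library. The quotient of the Fn1 and Thbs1 ratios was 1.13 (1.10 to 1.16, exact conditional interval). Summed over the 10 genes, the level was 4727 CPM in P2Y4 KO and 8124 CPM in WT PAT, which is 0.473% and 0.812% of the libraries. Fn1 and Thbs1 together made up 70.5% of this sum in P2Y4 KO and 77.1% in WT PAT, and 86.3% of its difference. Without them the summed level was 1396 CPM in P2Y4 KO and 1861 CPM in WT PAT, a ratio of 0.750.

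**Figure D2:**
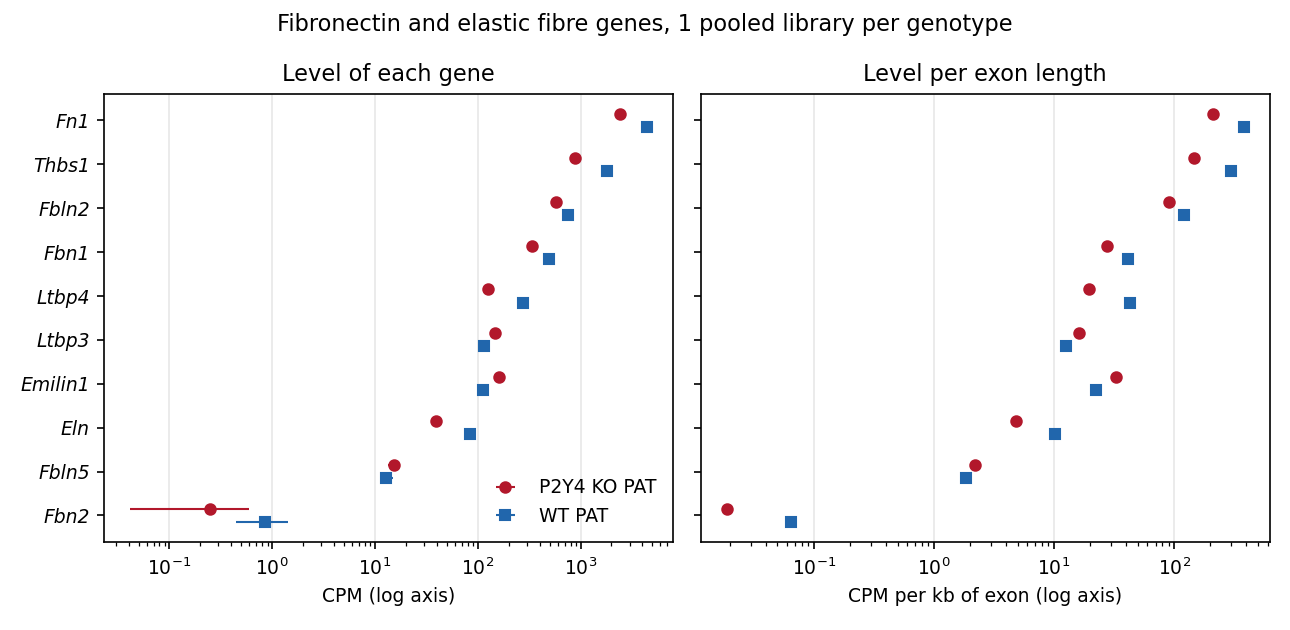
Levels of the 10 genes in the P2Y4 KO (circles) and WT (squares) library, as CPM with 95% counting intervals (left) and as CPM per kb of exon (right), both on log axes. Fn1 and Thbs1 lead in both libraries, at 2445 and 886 CPM in P2Y4 KO PAT and at 4447 and 1817 CPM in WT PAT, and Fbn2 is lowest, at 0.25 and 0.85 CPM.

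Elastin, the core of the fibre, followed the same direction at a much lower level. Eln stood at 39.0 CPM in P2Y4 KO PAT (581 reads) and at 83.2 CPM in WT PAT (1290 reads). Its ratio was 0.469 (0.425 to 0.518), so that the upper bound lies above 0.5.

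The fibrillins, the scaffold of the microfibril, were carried by Fbn1. Fbn1, the fibrillin of adult tissues that is mutated in Marfan syndrome in humans, stood at 334 CPM in P2Y4 KO PAT (4973 reads) and at 499 CPM in WT PAT (7734 reads), a ratio of 0.670 (0.646 to 0.694). Fbn2, mainly a fibrillin of development, was near the limit of detection. It had 3 reads in P2Y4 KO PAT and 13 in WT PAT, at 0.25 and 0.85 CPM. The ratio of 0.294 is the lowest of the 10 genes, but the interval from 0.0439 to 0.875 makes it the least certain. The quotient of the Fbn1 and Fbn2 ratios, 2.28, has an interval from 0.765 to 15.3, so a difference between the fibrillins was not detectable at this depth.

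The fibulins differed from each other. Fbln2, which binds fibronectin, elastin and fibrillin-1, stood at 573 CPM in P2Y4 KO PAT (8523 reads) and at 763.5 CPM in WT PAT (11840 reads), a ratio of 0.750 (0.729 to 0.771). Fbln5, a fibulin that mice need to form elastic fibres, stood at 15.2 CPM in P2Y4 KO PAT (227 reads) and at 12.9 CPM in WT PAT (200 reads). The interval of its ratio of 1.18 (0.973 to 1.44) holds 1, and so a difference in Fbln5 was not detectable at this depth. The quotient of the Fbln2 and Fbln5 ratios was 0.634 (0.521 to 0.772).

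The LTBPs went in opposite directions. Ltbp4, whose product promotes the deposition of fibulin-5 and elastin onto microfibrils, stood at 127 CPM in P2Y4 KO PAT (1889 reads) and at 275 CPM in WT PAT (4264 reads). Its ratio was 0.462 (0.437 to 0.487), with the whole interval under 0.5. Ltbp3, which carries latent TGF-beta, stood at 147 CPM in P2Y4 KO PAT (2192 reads) and at 115 CPM in WT PAT (1785 reads), a ratio of 1.28 (1.20 to 1.36). Ltbp3 therefore gave more reads than Ltbp4 in the P2Y4 KO library and fewer in the WT library. The quotient of the Ltbp4 and Ltbp3 ratios was 0.361 (0.332 to 0.392), and this quotient does not depend on how the libraries are scaled.

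Ltbp4 and Ltbp3 are the members of 1 family among the 10 genes whose ratios lie on opposite sides of 1 with intervals that exclude 1, and their upstream sequences are shown for that reason. Mouse Ltbp4 has a long and a short form with separate starts, which counts per gene do not separate. RefSeq (GRCm38.p6) places the outermost start of Ltbp4 3964 bases from the innermost. Each sequence ends just before an annotated exon or the RefSeq start and is read 5′ to 3′ on the strand of the gene, with matches to the searched motifs in capitals. The first, upstream of the long form, is chr7:27337693-27337862 on the minus strand (170 bases, since GENCODE annotates an exon in the rest of its window). The second, upstream of the short form, is chr7:27333664-27333913 on the minus strand (250 bases), and the third is chr19:5740650-5740899 on the plus strand (250 bases).
Ltbp4, long form: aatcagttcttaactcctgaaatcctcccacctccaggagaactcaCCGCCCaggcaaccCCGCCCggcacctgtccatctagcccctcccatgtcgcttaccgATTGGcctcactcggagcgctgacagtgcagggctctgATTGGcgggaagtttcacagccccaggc
Ltbp4, short form: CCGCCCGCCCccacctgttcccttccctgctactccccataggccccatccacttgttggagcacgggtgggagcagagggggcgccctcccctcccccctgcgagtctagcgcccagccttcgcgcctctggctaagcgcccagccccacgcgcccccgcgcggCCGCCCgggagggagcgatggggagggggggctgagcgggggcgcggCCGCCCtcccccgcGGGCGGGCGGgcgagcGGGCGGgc
Ltbp3: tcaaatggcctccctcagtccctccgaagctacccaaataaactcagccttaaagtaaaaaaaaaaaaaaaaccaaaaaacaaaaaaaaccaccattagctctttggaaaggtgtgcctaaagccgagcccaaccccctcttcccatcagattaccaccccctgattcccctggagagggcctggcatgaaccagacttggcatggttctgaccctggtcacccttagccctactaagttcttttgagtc

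The motifs searched on both strands were the GC box (GGGCGG), the CCAAT box (CCAAT), the TATA box (TATAAA), the AP-1 site (TGANTCA), the E-box (CACGTG) and the cAMP response element (TGACGTCA). Over the 250 bases before all 32851 RefSeq starts in the table, 32.7% hold a GC box, 33.9% a CCAAT box, 12.4% a TATA box, 6.75% an AP-1 site, 6.02% an E-box and 1.55% a cAMP response element. The printed sequence of the long form of Ltbp4 holds 2 GC boxes and 2 CCAAT boxes, all in the reverse orientation. A further GC box, in the listed orientation, lies 32 bases before the start, in the part of its window that is not printed. The printed sequence of the short form holds 7 GC boxes, which overlap in 2 places, and no other motif of the search. The Ltbp3 window holds none of the 6 motifs. The windows also differ in base composition, with 64.4% G and C before the long form of Ltbp4, 79.2% before the short form and 47.2% before Ltbp3, beside a median of 52.4% over all windows. A match of letters is a description of the window and not a binding site.

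Emilin1 had the highest ratio of the 10 genes. Its product, EMILIN-1, limits the processing of pro-TGF-beta in mouse vessels besides its place in the fibre. Emilin1 stood at 161 CPM in P2Y4 KO PAT (2390 reads) and at 112 CPM in WT PAT (1729 reads), a ratio of 1.44 (1.35 to 1.53). Against elastin, to which EMILIN-1 is bound, the quotient of the Eln and Emilin1 ratios was 0.326 (0.290 to 0.366).

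**Figure D3:**
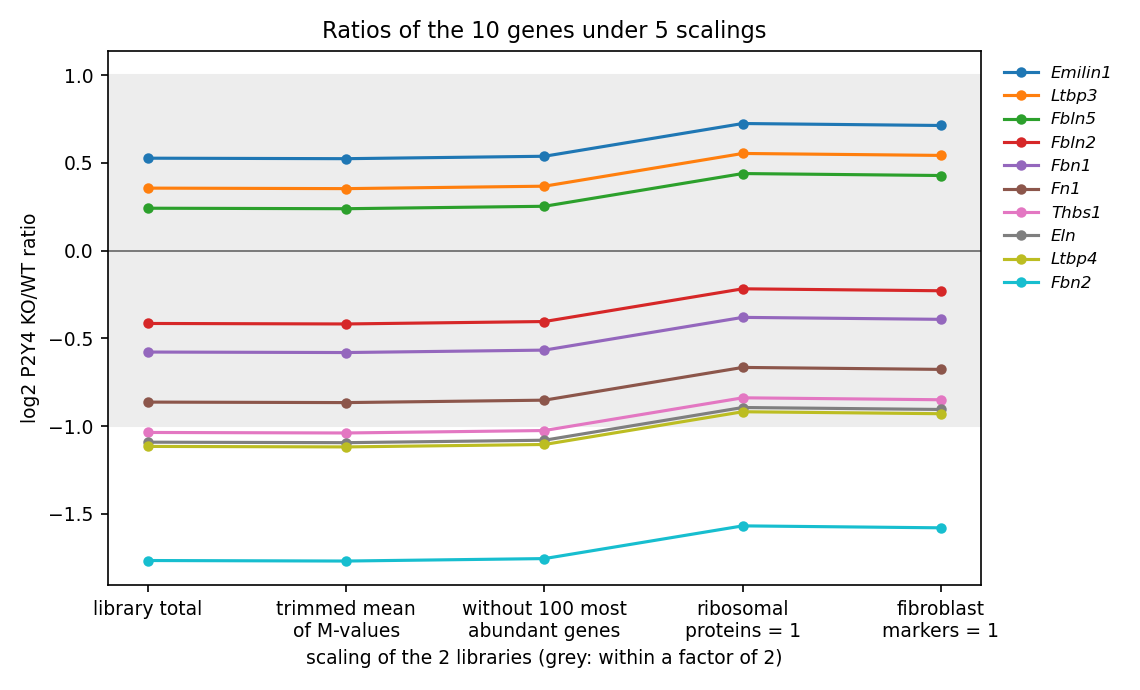
Log2 P2Y4 KO/WT ratio of the 10 genes under 5 scalings of the libraries, each line a gene and the grey band a factor of 2. All lines shift together, so that Thbs1, Eln and Ltbp4 move into the band when the scaling sets ribosomal protein genes or fibroblast markers to 1.

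A scaling moves all genes by the same factor, and the log2 shifts of the scalings tried, at most 0.20, are smaller than the distance of any of the 10 genes from a log2 ratio of 0. Over the library total and 6 other scalings, Fn1 ranged from 0.549 to 0.630, Thbs1 from 0.487 to 0.559, Eln from 0.468 to 0.538, Ltbp4 from 0.461 to 0.529 and Emilin1 from 1.44 to 1.65. The interval of Fbln5 holds 1 on the library total.

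For a comparison between genes, levels were divided by exon length, here the merged exons of the GENCODE M21 annotation. This is not the release used for the counts. The merged exons are those of all annotated transcripts of a gene, and which of them PAT expresses is not known here, so the order is approximate. Per kb of exon the order in P2Y4 KO PAT was Fn1 (209 CPM per kb), Thbs1 (146), Fbln2 (89.9), Emilin1 (32.5), Fbn1 (27.5), Ltbp4 (19.6), Ltbp3 (16.2), Eln (4.82), Fbln5 (2.21) and Fbn2 (0.0189). In WT PAT it was Fn1 (381 CPM per kb), Thbs1 (299), Fbln2 (120), Ltbp4 (42.5), Fbn1 (41.1), Emilin1 (22.6), Ltbp3 (12.7), Eln (10.3), Fbln5 (1.87) and Fbn2 (0.0643). The first 3 and the last 4 places were the same in both libraries. Between them, Ltbp4 held place 6 in P2Y4 KO and place 4 in WT PAT, and Emilin1 place 4 in P2Y4 KO and place 6 in WT PAT. Ltbp4 and Fbn1 in WT PAT are the only neighbours in either order whose counting intervals overlap. These intervals do not cover error in the exon length.

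Other genes of the microfibril and of elastin assembly were mostly within a factor of 2 in the same comparison. Of 18 such genes, 16 passed the CPM filter, with Mmrn2, a gene of the EMILIN and multimerin family made by endothelial cells, higher, Adamtsl4 lower and a median log2 ratio of -0.29. Adamtsl4, which encodes a fibrillin-binding protein, stood at 35.9 CPM in P2Y4 KO and 76.5 CPM in WT PAT (ratio 0.469, 0.423 to 0.520), and Mmrn2 at 9.95 CPM in P2Y4 KO and 4.45 CPM in WT PAT (ratio 2.24, 1.67 to 3.02). Adamtsl4 is within the limits after the ribosomal protein scaling. The remaining LTBPs also differed in direction, Ltbp1 with a ratio of 0.617 (0.550 to 0.691) and Ltbp2 with 1.51 (1.36 to 1.67). Among the other fibulins, Fbln1 had a ratio of 0.562 (0.525 to 0.600), Efemp1 (fibulin-3) 0.716 (0.676 to 0.758) and Efemp2 (fibulin-4) 1.02 (0.951 to 1.10). The tenascin-X gene Tnxb lay just above the limit at 0.517 (0.480 to 0.557).

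None of the 5 lysyl oxidases, the enzymes that cross-link elastin and collagen, passed either limit, with ratios from 0.755 for Loxl2 to 1.05 for Loxl3 and a median log2 ratio of -0.20. None of 10 listed receptors of fibronectin and other RGD proteins did so either, with ratios from 0.573 to 1.63 and a median log2 ratio of -0.30. The fibronectin receptor subunits Itga5 and Itgb1 had ratios of 0.779 (0.743 to 0.816) and 0.775 (0.752 to 0.798), and Itgb6 is not listed. The 6 genes of TGF-beta ligands and their latent complex had ratios between 0.701 (Furin) and 1.35 (Nrros) and a median log2 ratio of 0.08, with Tgfb1 at 113 CPM in P2Y4 KO and 96.2 CPM in WT PAT.

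Among the other thrombospondins and thrombospondin receptors, 6 genes with a median log2 ratio of -0.20, Thbs4 was lower and Comp higher. Both rest on few reads. Thbs4 had 24 in P2Y4 KO and 68 in WT PAT (ratio 0.375, 0.221 to 0.593). Comp had 28 in P2Y4 KO and 5 in WT PAT (ratio 5.43, 2.22 to 19.4). Comp stood at 1.9 CPM in P2Y4 KO and 0.35 CPM in WT PAT and passed the CPM filter through the P2Y4 KO library only. With more than 0.5 CPM required in both libraries, 5 genes of this list remained and none was higher. Thbs3 had a ratio of 0.504 (0.437 to 0.579) and Thbs2 one of 0.912 (0.810 to 1.03). Of 11 matricellular and matrix response genes, with a median log2 ratio of 0.18, Ctgf (connective tissue growth factor) was lower and Smoc1 higher. Ctgf stood at 13.9 CPM in P2Y4 KO and 38.0 CPM in WT PAT (ratio 0.364, 0.309 to 0.427), and Smoc1, which encodes a modulator of BMP signalling, at 24.6 CPM in P2Y4 KO and 5.90 CPM in WT PAT (ratio 4.16, 3.31 to 5.32). Sparc, an abundant collagen-binding matrix protein, had a ratio of 1.07 (1.04 to 1.09). Of 8 elastin-degrading proteases past the filter, Mmp2 and the macrophage elastase Mmp12 were higher, with ratios of 2.70 (2.37 to 3.07) and 2.04 (1.79 to 2.34), none was lower, and the median log2 ratio was 0.24. Elane and Ctsg did not pass the filter and Mmp7 is not listed.

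**Figure D4:**
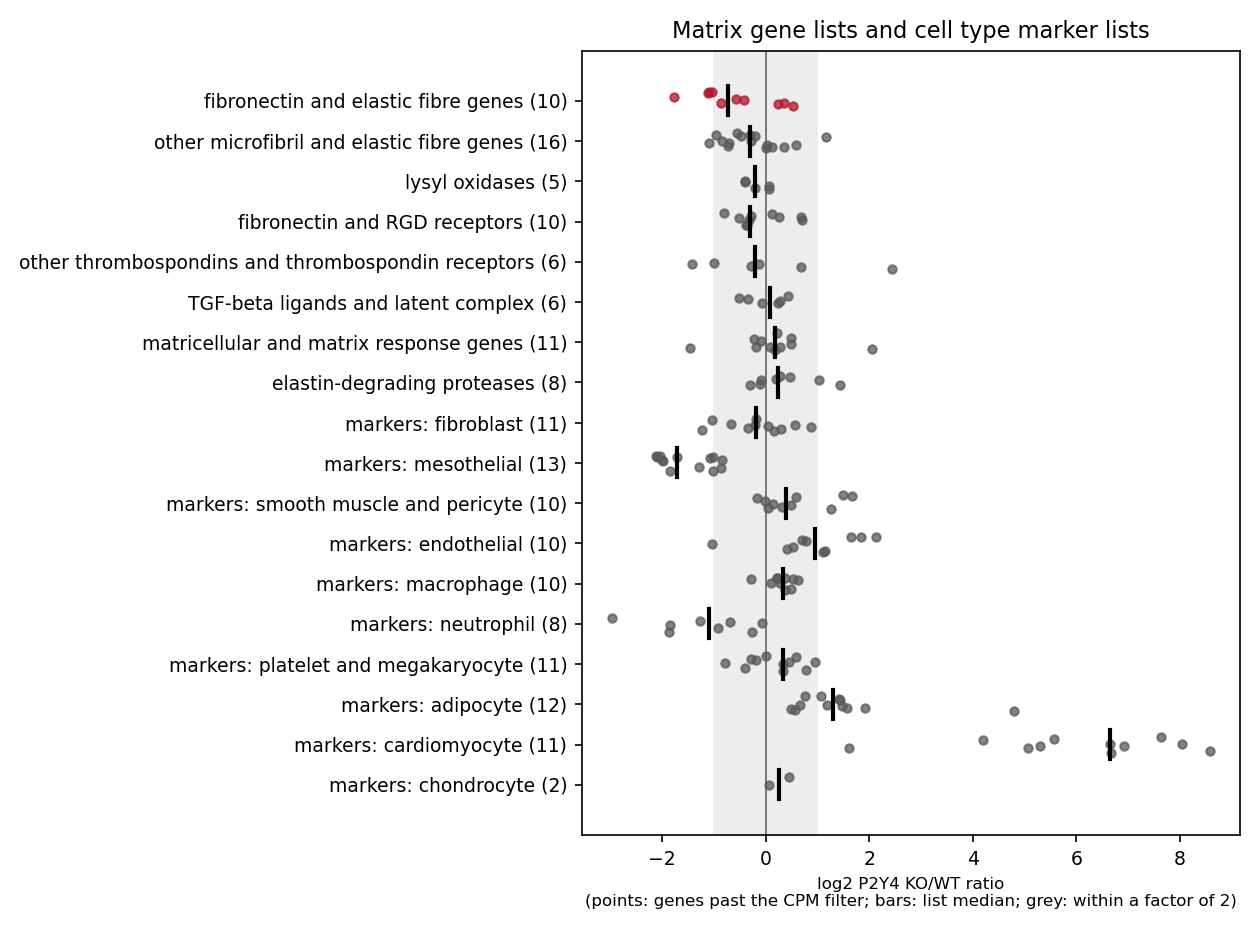
Log2 P2Y4 KO/WT ratios of the genes past the CPM filter in each list (points), with list medians (bars), the number of genes in parentheses and a factor of 2 in grey. The median of the fibronectin and elastic fibre genes (-0.72) lies below those of the other matrix lists (-0.30 to 0.24). Among the marker lists, only the mesothelial (-1.70) and neutrophil (-1.09) medians are lower. The next one above is that of the fibroblast markers (-0.19).

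Markers of the cells in PAT differed beside these genes. Of 13 mesothelial markers 11 were lower (median log2 ratio -1.70), or 8 after the ribosomal protein scaling, at a summed 778 CPM in P2Y4 KO and 2501 CPM in WT PAT. Msln, the most abundant of them, stood at 141 CPM in P2Y4 KO and 558 CPM in WT PAT. Of 11 fibroblast markers, at a summed 5833 CPM in P2Y4 KO and 6710 CPM in WT PAT, Cd34 (ratio 0.425) and Clec3b (ratio 0.486) were lower, with a median log2 ratio of -0.19. After the ribosomal protein scaling 1 of the 11 was lower (Cd34) and 1 higher (Pi16). Col3a1, the most abundant of them, had a ratio of 0.879. Of 10 smooth muscle and pericyte markers past the filter, Notch3, Rgs5 and Cspg4 were higher (median log2 ratio 0.40), and Pdgfrb, the most abundant, stood at 69.7 CPM in P2Y4 KO and 62.8 CPM in WT PAT. The 12 listed markers summed to 338 CPM in P2Y4 KO and 270 CPM in WT PAT. The part of these cells in the levels of Fn1, Thbs1, Eln and Ltbp4 was not tested.

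Adipocyte markers were present in both libraries, at a summed 6658 CPM in P2Y4 KO and 3650 CPM in WT PAT. Of these, 8 of 12 were higher (median log2 ratio 1.30), or 7 of 11 with more than 0.5 CPM required in both libraries. Fabp4, the most abundant, stood at 1914 CPM in P2Y4 KO and 1292.5 CPM in WT PAT. Of 10 endothelial markers Cdh5, Tie1, Tek, Vwf and Egfl7 were higher and Kdr was lower (median log2 ratio 0.95), but Kdr was within the limits after the ribosomal protein scaling. Pecam1, the most abundant, had a ratio of 1.33 (1.17 to 1.51). None of 10 macrophage markers passed a limit (median log2 ratio 0.33), with Lyz2, the most abundant, at 2486 CPM in P2Y4 KO and 2131 CPM in WT PAT. None of 11 platelet and megakaryocyte markers did so either (median log2 ratio 0.33), although 1 (Gp6) was higher after the ribosomal protein scaling. Pf4, the most abundant of these, stood at 417 CPM in P2Y4 KO and 476 CPM in WT PAT. Of 8 neutrophil markers Ly6g, Retnlg, Camp and Ngp were lower (median log2 ratio -1.09). Camp rests on 3 reads in P2Y4 KO and 9 in WT PAT, with an interval of its ratio that holds 1 (0.0605 to 1.39). Camp passed the CPM filter through the WT library only. S100a9, the most abundant neutrophil marker, had a ratio of 0.953 (0.926 to 0.981). All 11 listed cardiomyocyte markers were higher (median log2 ratio 6.66), at a summed 518 CPM in P2Y4 KO and 9.50 CPM in WT PAT. Of these 11, 4 had more than 0.5 CPM in both libraries, and the others passed the filter through the P2Y4 KO library. Myh6, the most abundant, had 1707 reads in P2Y4 KO and 4 in WT PAT. An alternative chosen after seeing the data left mesothelial, adipocyte and cardiomyocyte markers out of the library totals. The count of the 10 genes at or under a ratio of 0.5 was again 4. The P2Y4 KO over WT factor of that scaling was 0.9979, too near 1 to change the count. The RNA of these cells stays in the levels of all other genes, so their part was not tested by it.

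All 10 genes are annotated as protein-coding in GENCODE M21 on GRCm38. On the minus strand are Fn1 (ENSMUSG00000026193, chr1:71585520-71653200), Eln (ENSMUSG00000029675, chr5:134702593-134747323), Fbn1 (ENSMUSG00000027204, chr2:125300594-125507993), Fbn2 (ENSMUSG00000024598, chr18:58008623-58210487), Fbln5 (ENSMUSG00000021186, chr12:101746565-101819055) and Ltbp4 (ENSMUSG00000040488, chr7:27305136-27337692). On the plus strand are Thbs1 (ENSMUSG00000040152, chr2:118111876-118127133), Fbln2 (ENSMUSG00000064080, chr6:91212455-91272540), Ltbp3 (ENSMUSG00000024940, chr19:5740904-5758532) and Emilin1 (ENSMUSG00000029163, chr5:30913402-30921277). The merged exons of 6 of the 10 genes overlap exons of a gene on the opposite strand, over 0.976% (Fbn2) to 20.1% (Fbn1) of their length. Whether HTSeq counted reads by strand is not given in the sources used here.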

How the data were processed

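RNA of PAT from 3 P2Y4 KO and 3 WT mice was pooled per genotype by the authors, and libraries were prepared with a TruSeq Stranded mRNA kit. Per the study's methods and the submitters' processing notes, paired-end reads were trimmed (Trimmomatic), mapped to GRCm38.p4 (mm10) with STAR and counted per gene with HTSeq on Ensembl release 87. For the tool versions and the strand setting, the sources used here give nothing. In the deposited table the signal of a gene looks like its reads after scaling of the library to 20000000 and rounding up, done by the authors. It was divided by 20 to give CPM. Reads were recovered from the steps of 1.34 (P2Y4 KO) and 1.29 (WT) between values. Rounded up with no tolerance, 99.81% of the P2Y4 KO and 99.84% of the WT values came out as whole reads. The authors' ratios and their list of regulated genes hold their own comparison and were not used.

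Genes with CPM above 0.5 (at least 8 reads) in 1 library or more were considered, with the limits of 2 and 0.5 on the P2Y4 KO/WT ratio taken from the study's methods. No test across samples was possible with 1 library per genotype, and no count model was fitted. The intervals of ratios are exact (Clopper-Pearson, scipy 1.17.1) given the sum of reads of both libraries, and quotients of ratios have exact conditional intervals of the odds ratio. Scripts were tested on simulated data. The genes and the 17 other lists, of matrix genes and of cell type markers, were chosen with earlier results of these data known. Named are the 10 genes, every gene past a limit where a list holds 5 or fewer, up to 4 with the bound farthest from 1 in other matrix lists, and the most abundant marker of a list over both libraries. Gm genes and Apol7d were named for their overlap, and other genes named with a ratio within the limits (Tnxb, Thbs3, Sparc, Itga5, Itgb1, Tgfb1, Pi16, Gp6 and the remaining LTBPs, fibulins and ends of ranges) were picked after their values were seen. Likeness to other genes was not computed, since 2 libraries give 1 ratio. Of the 10 genes, 6 have an entry in the RefSeq promoter table. Fn1, Eln, Fbn2 and Thbs1 have none. Protein sequences were not used. Alternatives were other CPM filters, scalings and an added 0.5 CPM. Of 5 listed genes that overlap on the opposite strand, 1 is not reported here.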

Additional observations from a re-analysis of the deposited data

How the results depend on the processing

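With 1 library per genotype no result has a replicate error. The count of genes at or under a ratio of 0.5, 4 on the library total, was 1 (Fbn2) with ribosomal protein genes set to a ratio of 1 and also 1 (Fbn2) with fibroblast markers set to 1, a scaling chosen after seeing the data. It was 2 (Ltbp4 and Thbs1) where the whole interval had to lie past the limit, 3 without Fbn2 under stricter CPM filters or with 0.5 CPM added, and 4 under the remaining scalings, with no filter and on recovered reads (added after seeing the data). No gene reached a ratio of 2 under any of these. The median log2 ratio ranged from -0.72 to -0.52 over the settings. Over all genes, 2154 were higher and 531 lower after the ribosomal protein scaling, in place of 1617 and 812. No paired analysis was possible because each genotype has 1 library. Depth limits Fbn2 and Fbln5 most.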

Other observations

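The ratios of 4 genes on the opposite strand that share exon sequence with Fn1, Thbs1, Fbn1 and Eln are given beside theirs. Apol7d, which shares 292 bases of exon with Fn1, had 977 reads in P2Y4 KO and 1955 in WT PAT, a ratio of 0.521 (0.482 to 0.563) beside 0.550 for Fn1. Gm29233, which shares 208 bases with Thbs1, had 907 reads in P2Y4 KO and 1996 in WT PAT, a ratio of 0.473 (0.437 to 0.512) beside 0.488 for Thbs1. Gm9913, with 87.4% of its exons inside those of Fbn1, had 173 reads in P2Y4 KO and 267 in WT PAT, a ratio of 0.675 (0.554 to 0.820) beside 0.670 for Fbn1. Gm30003, which shares 267 bases with Eln, had 18 reads in P2Y4 KO and 37 in WT PAT, a ratio of 0.521 (0.272 to 0.913) beside 0.469 for Eln. Whether these reads come from the opposite strand was not tested, and the reads of such pairs cannot be told apart here.

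Of 10 chondrocyte markers, searched because Comp was higher, 3 are listed and 2 passed the CPM filter, Sox9 with a ratio of 1.38 (1.06 to 1.79) and Col11a2 with 1.04 (0.745 to 1.46). Col2a1 had 1 read in P2Y4 KO and 2 in WT PAT.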
